A study of Mus musculus with 9 samples.

Results

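Fat cells take up fatty acids from circulating lipoproteins in steps. Lipoprotein lipase, made by the fat cell, is moved to the capillary wall, where it splits triglyceride, and the released fatty acids then enter the cell with the help of membrane proteins and are carried through the cytosol by small binding proteins. Brown fat, which burns fatty acids for heat, draws on this route strongly, and inhibitors of the lipase such as ANGPTL4 set how much fat a tissue takes from the blood. Measured here were 10 genes of this route out of 30860 genes on the arrays: Lpl, Angptl4, Gpihbp1 and Lmf1 of the lipase system, the membrane genes Cd36, Slc27a1 and Slc27a2, and the binding protein genes Fabp3, Fabp4 and Fabp5. They were chosen by symbol, and a symbol with several transcript clusters (groups of probes) was represented by the brightest of them.

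Brown fat cells of C57BL/6 mice, differentiated in culture, received AM73 or AM80 at 10 µM, or the solvent DMSO, for 8 h. The depositors name the compounds activators of PPARGC1a1, a form of the coactivator PGC-1α, and their codes are all that is known of them here. Total RNA was measured on 3 whole-transcript arrays per group, and the values are log2 expression values normalised over the arrays. The array labels call the replicates technical, so a group may be 1 culture, and every p-value measures only the spread between these arrays.

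With AM80, Cd36 and Lpl fell and Angptl4 rose, while the remaining 7 genes did not pass the test against DMSO, which 13.9% of all genes passed. With AM73, 0 of the 10 genes passed (0.12% of all genes did), although Angptl4 was higher on every AM73 array than on any DMSO array. Set against AM73, AM80 lowered Cd36 and Lpl and raised Angptl4 and Fabp5. The last 2 calls were lost under some settings, and that of Fabp5 depended on the transcript cluster. Scaled to spiked control RNAs, both differences turned, to −0.54 for Angptl4 and −0.69 for Fabp5. Of the calls against DMSO, that of Angptl4 was lost under this scaling. That of Lpl was lost in 3 of 9 fits with 1 array left out. By the authors' q-value Cd36, Lpl and Angptl4 did not pass against DMSO (q = 0.138 for each). Gpihbp1 and Slc27a2 lay at the level of background probes in all groups.

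The arrays carried features that bear on these values. Along principal component 1 (58.7% of the variance over all genes) the AM80 arrays lay at 74.7, 53.7 and 31.2, DMSO replicate 3 at 2.51, and the other 5 arrays between −41.6 and −22.6. Poly-A control RNAs, spiked into each sample, had medians of 4.51 to 4.83 with DMSO, 4.08 to 4.68 with AM73 and 5.20 to 5.85 with AM80. Scaling each array to these controls takes the median difference of all genes from 0.04 to −0.80 for AM80 against DMSO and from 0.07 to −1.05 for AM80 against AM73, so every direction below is relative to the other genes on the array. Fewer cells of a type and less RNA per cell cannot be told apart in such samples. All 3 AM80 arrays came from column 5 of the array plate, as the array names read, together with replicate 2 of DMSO and of AM73, while the other arrays came from column 7.

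The labelled cell type was checked with marker genes against intron control probe sets, which measure background. The cut was the 95th percentile of these controls, taken separately within each group. All 8 fat cell markers lay above it in each group. Of 8 brown fat markers, 5 lay below it with DMSO, 2 with AM73 and 2 with AM80. Because the cut differed between groups, these counts are not a measure of marker change. Prdm16 read 4.45 with DMSO, below the cut, and 4.35 with AM80, above it. Ucp1 and Cidea also lay below the cut with DMSO, at 3.97 and 4.14. Both lay above it with AM73 (6.13 and 4.84) and with AM80 (5.9 and 4.96), and the differences of Cidea from DMSO did not pass. Pdgfra, a fibroblast marker, read 4.79 with both DMSO and AM73 but lay below the cut only with AM73. All 8 endothelial and all 8 macrophage markers lay below the cut in each group. Skeletal muscle markers lay below it for 6 of 6 genes with DMSO and AM73 and for 5 of 6 with AM80, where their summed linear level was 52.4 to 67.6 against 42.3 to 43.1 with DMSO and 38.3 to 39.7 with AM73. Of these 6 genes only Acta1, skeletal muscle actin, passed against DMSO, with a rise of 0.90 (limma adjusted p = 0.00246). The part of muscle RNA in the results was not tested. Of 7 preadipocyte and fibroblast markers, 3 lay below background with DMSO, 5 with AM73 and 3 with AM80, and the brightest was Ly6a, with a mean of 8.08 over the 9 arrays. Their summed linear level was 390.2 to 483 with DMSO, 419 to 514 with AM73 and 268 to 469.9 with AM80, and 0 of the 7 passed in any comparison.

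The fat cell markers did not all move one way with AM80. Against DMSO 2 of the 8 rose, Cfd by 0.86 (adjusted p = 0.0134) and Cebpa by 0.64 (adjusted p = 0.0340). The remaining called marker, Pparg, the nuclear receptor that drives fat cell genes, fell by 0.91 (adjusted p = 0.00497). The median over the 8 was 0.32, against 0.04 over all genes. Against AM73 4 of the 8 rose and 1 fell, where 9.92% of all genes rose and 9.22% fell. The summed linear level of the 8 was 8768 to 9471 with AM80, 7859 to 8149 with DMSO and 7313 to 7413 with AM73. Of the 8 brown fat markers, 2 rose and 1 fell with AM80 against DMSO, where 6.9% of all genes rose and 7.04% fell. Ucp1 rose by 1.93 (adjusted p = 0.00320) and Cox7a1 by 1.13 (adjusted p = 0.0159), and Ppargc1a fell by 1.66 (adjusted p = 0.00237). With AM73 only Ucp1 passed, with a rise of 2.16 (adjusted p = 0.0256). Both rises of Ucp1 start from a DMSO level below the background cut.

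The differences between the AM80 and DMSO arrays also varied with gene span. Among 9220 genes above that 95th percentile, the median AM80 change against DMSO was 0.37 for the 2753 genes of up to 10 kb, 0.17 for spans of 10 to 30 kb, −0.26 for 30 to 100 kb, and −0.35 for the 951 genes over 100 kb. The share of genes higher with AM80 went from 78.0% in the shortest class to 26.9% in the longest. DMSO replicate 3 stood against the other DMSO arrays in the same order, from 0.16 to −0.21. For AM80 against AM73 the medians ran from 0.47 in the shortest class to −0.53 in the longest. The part of span in any single gene's change was not tested. Spans of Cd36, Lpl, Angptl4, Lmf1 and Fabp5 are given with their values. Gpihbp1 spans 1.56 kb, Fabp3 6.87 kb, Fabp4 4.24 kb, Slc27a1 17.78 kb and Slc27a2 35.84 kb. For the further genes of the route named below, spans are not given. Their rises and falls are therefore not set against the median of a span class.

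**Figure D1:**
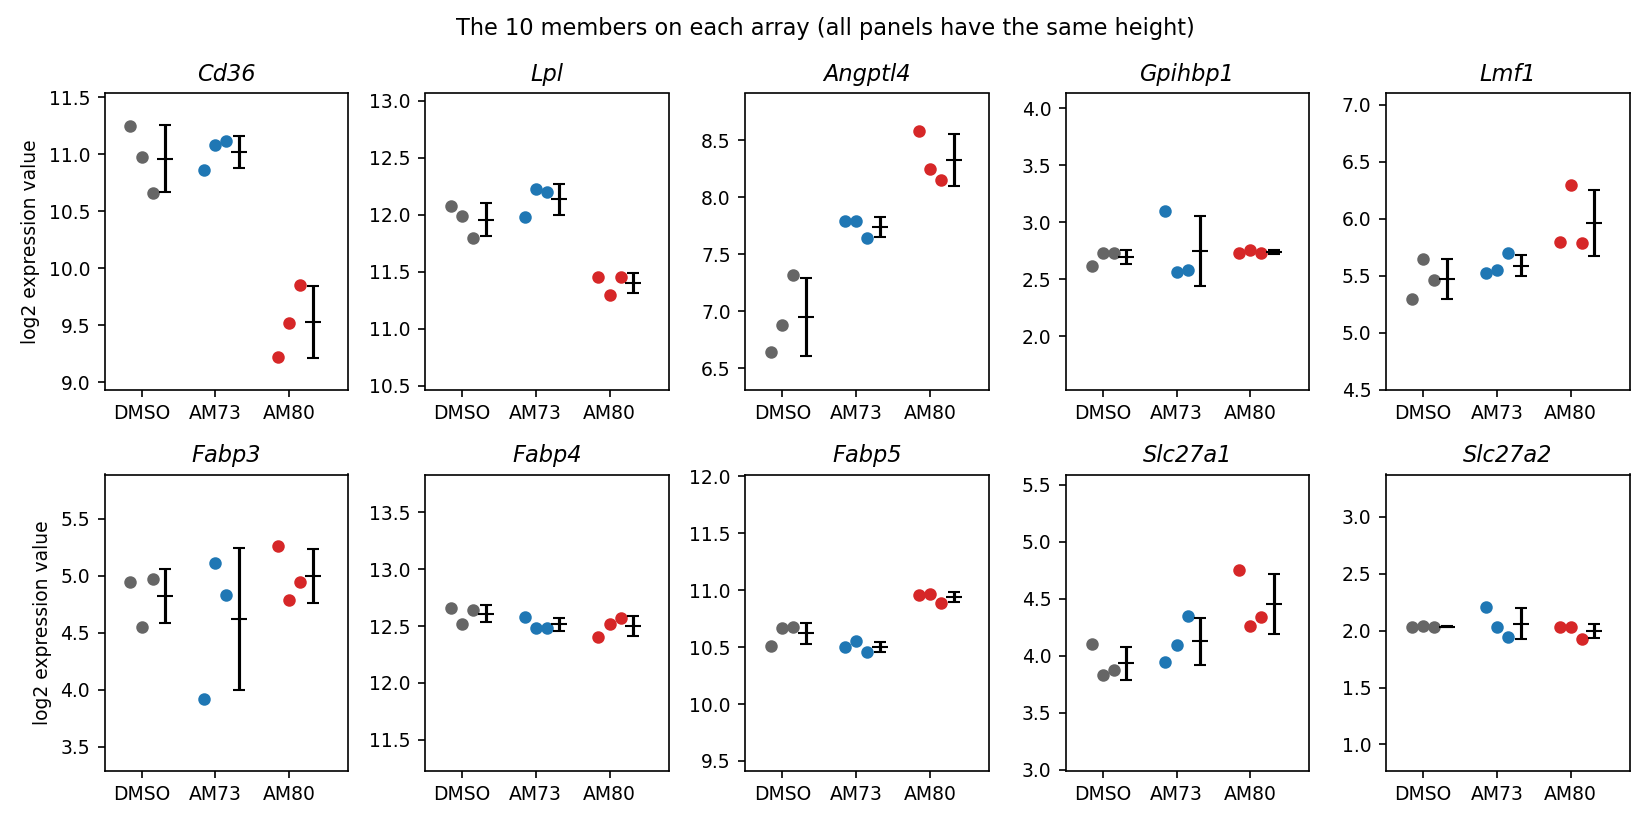
Log2 expression value (vertical axis, all panels of equal height) of the 10 genes on 3 arrays per group; points are arrays and the bar is the group mean ± SD. The AM80 points of Cd36 and Lpl lie below, and those of Angptl4 above, all DMSO and AM73 points.

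Cd36 encodes the fatty acid translocase of the plasma membrane, a main entry route for long-chain fatty acids. It was measured by transcript cluster 17445715, which covers chromosome 5 from 17781690 to 17888959 on the minus strand (mm10, a span of 107.27 kb). The RefSeq start region of Cd36 is shown because, of the 4 genes called in any comparison, it was the one with a region in the table used here. It runs from 250 bases before an annotated start to 50 bases after it (GRCm38.p6, chr5:17835847-17836146, minus strand, inside the annotated gene). Capitals mark motif matches.
Cd36: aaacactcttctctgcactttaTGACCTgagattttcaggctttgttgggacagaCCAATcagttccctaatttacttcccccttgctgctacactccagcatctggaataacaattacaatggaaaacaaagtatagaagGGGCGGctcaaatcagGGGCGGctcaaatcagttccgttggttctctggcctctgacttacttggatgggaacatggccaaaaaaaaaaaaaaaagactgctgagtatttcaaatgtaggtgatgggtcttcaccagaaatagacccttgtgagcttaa
Both strands were searched for 7 motifs, and no 2 of the matches overlap. AGGTCA, a core site of many nuclear receptors, matched at 1 place on the reverse strand, at −228 from the start, and 16.3% of 32851 start regions hold it. CCAAT matched 1 time at −195 (37.4% of regions) and GGGCGG 2 times from −109 (35.7% of regions). A direct repeat of AGGTCA with 1 base between (0.0396% of regions), ACGTG (19.6%), GCGTG (32.4%) and TATAAA (13.6%) gave 0 matches in this window. Of the 10 genes, 5 have a start region in the table (Cd36, Lmf1, Fabp3, Slc27a1 and Slc27a2), and the direct repeat was found in 0 of the 5. No region of any other gene was searched by name.

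On the DMSO arrays Cd36 had log2 values of 11.25, 10.98 and 10.66 (replicates 1 to 3). With AM73 the values were 10.86, 11.08 and 11.12. With AM80 they were 9.22, 9.52 and 9.85. All AM80 arrays were thus lower than every other array, with a clear gap, while the DMSO and AM73 arrays overlapped. The AM80 mean of 9.53 ± 0.32 (SD, n = 3) stood against 10.96 ± 0.30 with DMSO, a fall of 2.70-fold. In limma the log2 difference was −1.43 ± 0.19 (SE, 95% interval −1.86 to −1.01, adjusted p = 0.00256). Against AM73, at 11.02 ± 0.14, it was −1.49 (95% interval −1.91 to −1.07, adjusted p = 0.00104).

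The order of the group levels of Cd36 was AM80, then DMSO and AM73, and the last 2 did not differ beyond their spread (0.06, 95% interval −0.37 to 0.48, adjusted p = 0.960). The fall was larger than the median of genes of its span class (−0.35). It lay between −1.59 and −1.28 when each array was left out in turn and passed each time. Within plate column 5, where 1 DMSO array stands against the 3 AM80 arrays, the difference was −1.45 (adjusted p = 0.321), and 0 of all genes passed there. Scaled to the poly-A controls it was −2.27. On DMSO replicate 3, the DMSO array nearest to AM80 on the first principal component, Cd36 had its lowest DMSO value, and AM80 replicate 3, the AM80 array nearest to DMSO, had its highest AM80 value.

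Lpl encodes lipoprotein lipase itself. Its cluster, 17501633, covers chromosome 8 from 68880491 to 68906934 on the plus strand (a span of 26.44 kb). DMSO arrays read 12.08, 11.99 and 11.80. AM73 arrays read 11.98, 12.23 and 12.20. AM80 arrays read 11.45, 11.30 and 11.45. Again all AM80 arrays were lower than every other array, and DMSO and AM73 overlapped. From 11.96 ± 0.14 with DMSO, Lpl fell to 11.40 ± 0.09 with AM80 (SD, n = 3), a 1.47-fold fall, and its log2 difference was −0.56 ± 0.12 (SE, 95% interval −0.82 to −0.29, adjusted p = 0.0137).

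Against AM73, at 12.14 ± 0.14, the difference in Lpl was −0.74 (95% interval −1.0 to −0.47, adjusted p = 0.00241). AM73 and DMSO differed by 0.18 (95% interval −0.08 to 0.44, adjusted p = 0.744), which did not pass. Genes of 10 to 30 kb, the span class of Lpl, had a median AM80 change of 0.17, and 60.5% of them were higher with AM80 than with DMSO. The AM80 call against DMSO was lost without DMSO replicate 1 (adjusted p = 0.0643), DMSO replicate 2 (0.0541) or AM80 replicate 2 (0.0534), and after adjusting for plate column (−0.62, adjusted p = 0.0536). Its size stayed between −0.64 and −0.50 when each array was left out, was −0.59 within column 5, and reached −1.40 under poly-A scaling.

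Angptl4 encodes a secreted protein that inhibits lipoprotein lipase and is induced by fasting and by PPAR receptors. Cluster 17343628 covers chromosome 17 from 33773750 to 33781575 on the minus strand (a span of 7.83 kb). DMSO arrays read 6.64, 6.88 and 7.32. AM73 arrays read 7.79, 7.79 and 7.64. AM80 arrays read 8.58, 8.25 and 8.15. The 3 groups did not overlap, with DMSO lowest and AM80 highest, and the highest DMSO value came from replicate 3. The means were 6.95 ± 0.34, 7.74 ± 0.09 and 8.33 ± 0.23 (SD, n = 3).

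With AM80 Angptl4 rose 2.60-fold over DMSO, a log2 difference of 1.38 ± 0.18 (SE, 95% interval 0.98 to 1.78, adjusted p = 0.00256). With AM73 the difference was 0.79 ± 0.18 (95% interval 0.39 to 1.19, 1.73-fold), which did not pass in limma (adjusted p = 0.239). It passed under poly-A scaling (1.08, adjusted p = 0.0485), with array weights (0.86, adjusted p = 0.0481), and without DMSO replicate 3 and AM80 replicate 1 together (0.98, adjusted p = 0.0480). Between the compounds Angptl4 rose by 0.59 with AM80 over AM73 (95% interval 0.19 to 0.99, adjusted p = 0.0457). That last call was lost when AM73 replicate 1 (0.0916), 2 (0.0963) or 3 (0.143) was left out, when AM80 replicate 1 (0.149) or 2 (0.0873) was, and when DMSO replicate 2 was (0.0687). It was also lost with each array centred on its median (adjusted p = 0.0781) and after adjusting for plate column (0.60, adjusted p = 0.147).

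The rise of Angptl4 with AM80 depended on the scaling. Scaled to the poly-A controls it was 0.54 against DMSO (adjusted p = 0.0693), and against AM73 it turned to −0.54 (adjusted p = 0.0619). Within plate column 5 the differences from DMSO were 1.45 with AM80 (adjusted p = 0.321) and 0.91 with AM73 (adjusted p = 0.857), and within column 7 the AM73 difference was 0.74 (adjusted p = 0.795). Angptl4 belongs to the span class of up to 10 kb, whose median AM80 change against DMSO was 0.37, below its own. Against AM73 the class median was 0.47, within the 95% interval of Angptl4 (0.19 to 0.99).

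Gpihbp1 and Lmf1 complete the lipase system. GPIHBP1 is the endothelial protein that carries the lipase to the capillary lumen, and its gene read 2.56 to 3.10 over the 9 arrays, above only 54.8% of the intron controls. Differences between groups ran from −0.01 to 0.05 and did not pass, so only background was measured for it, in cells whose endothelial markers were at background too. LMF1, an endoplasmic reticulum protein needed for the lipase to fold into its active form, had a gene level of 5.47 ± 0.18 (SD, n = 3) under DMSO, 5.59 ± 0.10 under AM73 and 5.96 ± 0.29 under AM80. Its AM80 arrays (5.79 to 6.30) lay above all DMSO arrays (5.30 to 5.65). The difference of 0.49 ± 0.16 (95% interval 0.14 to 0.85, adjusted p = 0.0682) did not pass, and under poly-A scaling it was −0.35. Lmf1 passed against DMSO after a second quantile normalization (0.57, adjusted p = 0.0342), with array weights (0.58, adjusted p = 0.0273) and with dim genes left out (adjusted p = 0.0457). The first 2 of these settings also gave a call against AM73 (adjusted p = 0.0397 and 0.0419). Lmf1 spans 83.65 kb, a class whose median AM80 change was −0.26.

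**Figure D2:**
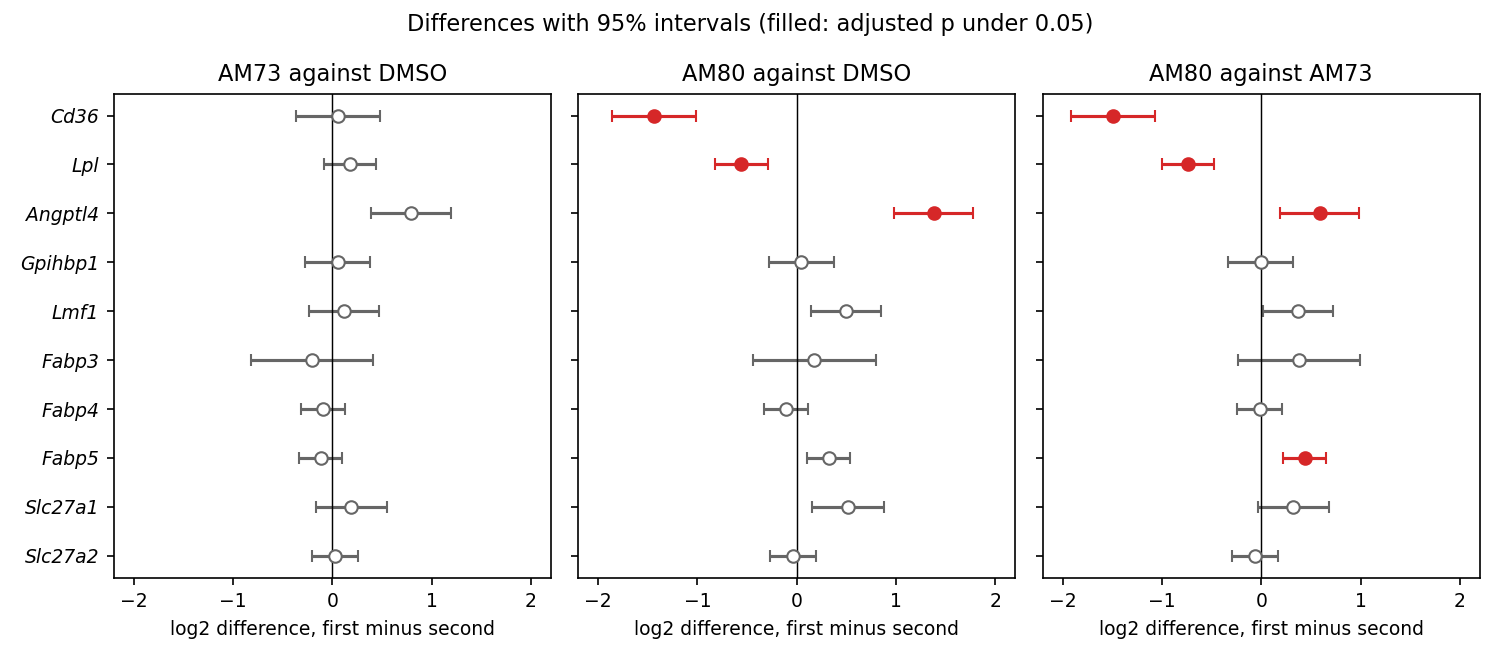
Log2 difference (horizontal axis, first group minus second) of each gene with its 95% interval in the 3 comparisons; filled red points have an adjusted p under 0.05. Only Cd36, Lpl, Angptl4 and, between the compounds, Fabp5 are filled, and the AM73 interval of Angptl4 runs from 0.39 to 1.19.

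Over the 10 genes, 0 passed for AM73 against DMSO, where 0.12% of all genes were called (0.104% upward and 0.0162% downward). For AM80 against DMSO 3 passed, 1 upward and 2 downward, where 13.9% of all genes were called (6.9% upward and 7.04% downward). For AM80 against AM73 4 passed, 2 in each direction, where 19.1% of all genes were called (9.92% upward and 9.22% downward). Groups did not overlap for Angptl4 alone with AM73, which was higher (12.6% of all genes, 5.71% upward and 6.87% downward). They did not overlap for 6 genes with AM80 against DMSO, 4 higher and 2 lower (25.5% of all genes, 14.9% upward and 10.6% downward). Between the compounds this held for 5 genes, 3 higher and 2 lower (31.5% of all genes, 18.9% upward and 12.7% downward). The median difference of the 10 was 0.06, 0.11 and 0.16 in the 3 comparisons, against −0.02, 0.04 and 0.07 over all genes. The AM73 and AM80 differences from DMSO share the 3 DMSO arrays.

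Of the 2 fatty acid transport proteins, FATP1 (Slc27a1), which moves long-chain fatty acids into muscle and fat cells and activates them, was dim. It read 3.93 ± 0.15 (SD, n = 3) under DMSO, 4.13 ± 0.21 under AM73 and 4.45 ± 0.26 under AM80, above 92.3% of the intron controls. All AM80 arrays (4.26 to 4.75) lay above all DMSO arrays (3.83 to 4.10) and overlapped the AM73 arrays (3.94 to 4.35). Its differences did not pass, at 0.52 against DMSO (95% interval 0.16 to 0.88, adjusted p = 0.0624) and 0.32 against AM73 (adjusted p = 0.216), and the former was −0.32 under poly-A scaling and passed with dim genes left out (adjusted p = 0.0415). Slc27a2, known mainly from liver and kidney as FATP2, read 1.93 to 2.21 on all arrays, above 23.0% of the intron controls, and its differences of −0.06 to 0.03 concern background.

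Fatty acid binding proteins hold fatty acids in the cytosol. Fabp4, the form typical of fat cells, was level across the groups at 12.61 ± 0.08 (SD, n = 3) under DMSO, 12.51 ± 0.06 under AM73 and 12.50 ± 0.09 under AM80. The AM80 difference was −0.11 (95% interval −0.33 to 0.11, adjusted p = 0.592), a range that does not reach the fall estimated for Lpl. Under poly-A scaling it became −0.95 (adjusted p = 0.00435). Fabp3, the heart and muscle form, which brown fat also makes, varied more between replicates. It read 4.82 ± 0.24 with DMSO, 4.62 ± 0.62 with AM73 and 5.0 ± 0.24 with AM80, with its lowest value of 3.92 on AM73 replicate 1. Its differences, from −0.20 to 0.38, did not pass, and their 95% intervals reached from −0.82 to 1.00.

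Fabp5, the epidermal form, read 10.51, 10.67 and 10.68 with DMSO. AM73 arrays read 10.50, 10.55 and 10.46. AM80 arrays read 10.96, 10.97 and 10.89. All AM80 arrays lay above every other array, by a small margin, and DMSO and AM73 overlapped. Between the compounds Fabp5 rose by 0.44 ± 0.10 with AM80 (SE, 95% interval 0.22 to 0.65, 1.35-fold, adjusted p = 0.0109). Against DMSO the difference of 0.32 (95% interval 0.10 to 0.54, adjusted p = 0.0565) did not pass. It passed with trend and robust moderation (adjusted p = 0.0215), with array weights (0.0350), in an ordinary linear model (0.0390) and with dim genes left out (0.0486). Genes of up to 10 kb, to which Fabp5 belongs with 4.06 kb, had medians of 0.47 between the compounds and 0.37 against DMSO. The call between the compounds was lost after adjusting for plate column (0.39, adjusted p = 0.0814) and after a second quantile normalization (0.30, adjusted p = 0.0565). Under poly-A scaling it passed the other way (−0.69, adjusted p = 0.0185), and the difference from DMSO was −0.52 (adjusted p = 0.0814).

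**Figure D3:**
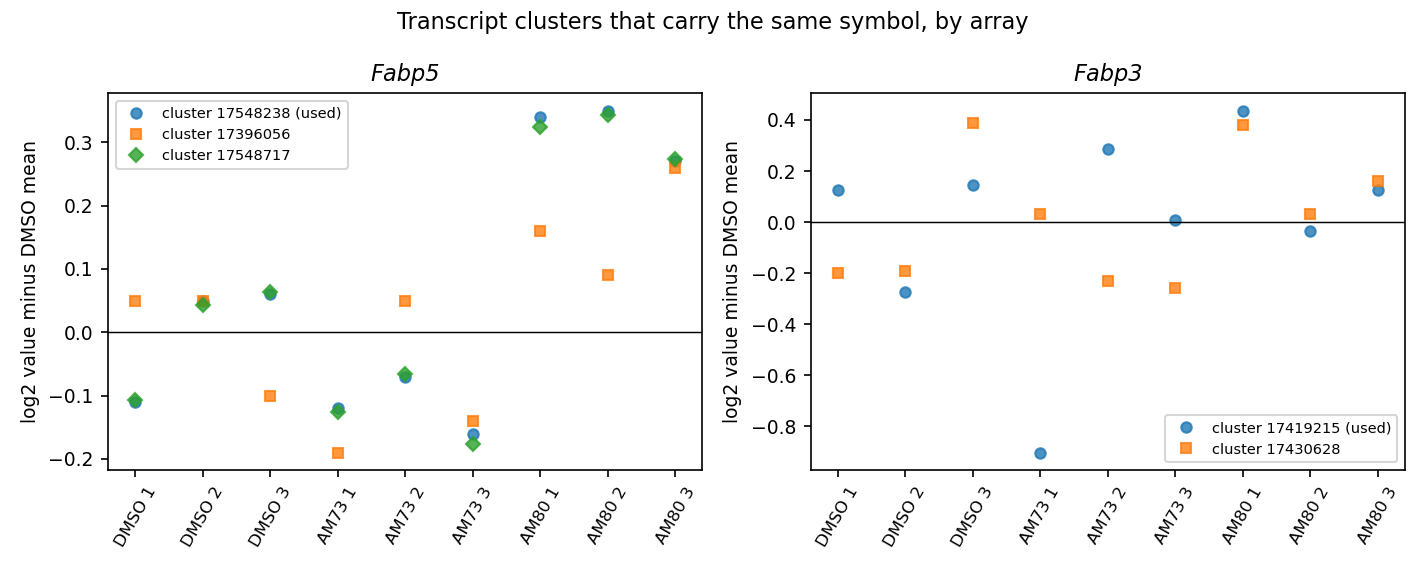
Log2 value minus the DMSO mean (vertical axis) on each array for the transcript clusters that carry the symbols Fabp5 (left) and Fabp3 (right). The used Fabp5 cluster and cluster 17548717 run together, while cluster 17396056 departs from them on several arrays.

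The Fabp5 result depends on the cluster. The used cluster 17548238 and cluster 17396056 have the same coordinates (chromosome 3, 10012548 to 10016610), yet the latter differed by 0.26 between the compounds (adjusted p = 0.134) and by 0.17 from DMSO with AM80 (adjusted p = 0.405). Cluster 17548717 lies on chromosome 9, from 57484390 to 57484590, inside the pseudogene Gm6166. It stayed 0.16 to 0.18 below the used cluster on each of the 9 arrays and gave the same 0.44 between the compounds (adjusted p = 0.0109). Signal of Fabp5 and of this copy therefore cannot be told apart, and the Fabp5 rise is uncertain. For Fabp3, cluster 17430628 reads the opposite strand of chromosome 4 (130308162 to 130308674), and its differences of −0.15 to 0.34 did not pass.

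Genes whose centred profile over the 9 arrays lay nearest to those of the 4 called genes were found among 19193 genes, by root mean square log2 difference. Nearest to Cd36 were Ppwd1 (0.06) and Krr1 (0.06), and to Lpl Mtrf1l (0.06) and Pafah1b1 (0.07). Angptl4 was followed by Atg101 (0.10) and Pfkl (0.11). For Fabp5 they were Ung (0.03) and Rpa1 (0.04). These are likenesses over 9 arrays of 3 groups and carry no test.

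A list of 51 other genes of the route, chosen for function, was read in the same fit. With AM73 0 of the 51 passed (0.12% of all genes did). With AM80 9 rose and 5 fell against DMSO, where 6.9% of all genes rose and 7.04% fell. Against AM73 9 rose and 7 fell, where 9.92% of all genes rose and 9.22% fell. The counts of the 3 lists with AM80 against DMSO stand beside the same 13.9% called among all genes. Of the 21 genes for control of the lipase, 5 rose and 1 fell, with a median of 0.32 against 0.04 over all genes. Of the 18 genes for uptake and activation, 4 rose and 4 fell (median 0.10). Of the 12 genes for other cytosolic lipid binding proteins, 0 passed (median −0.13). The count of 14 against DMSO fell to 6 without DMSO replicate 1, to 8 without DMSO replicate 2 or AM80 replicate 2, and to 9 without AM80 replicate 1, and it was 5 after adjusting for plate column.

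**Figure D4:**
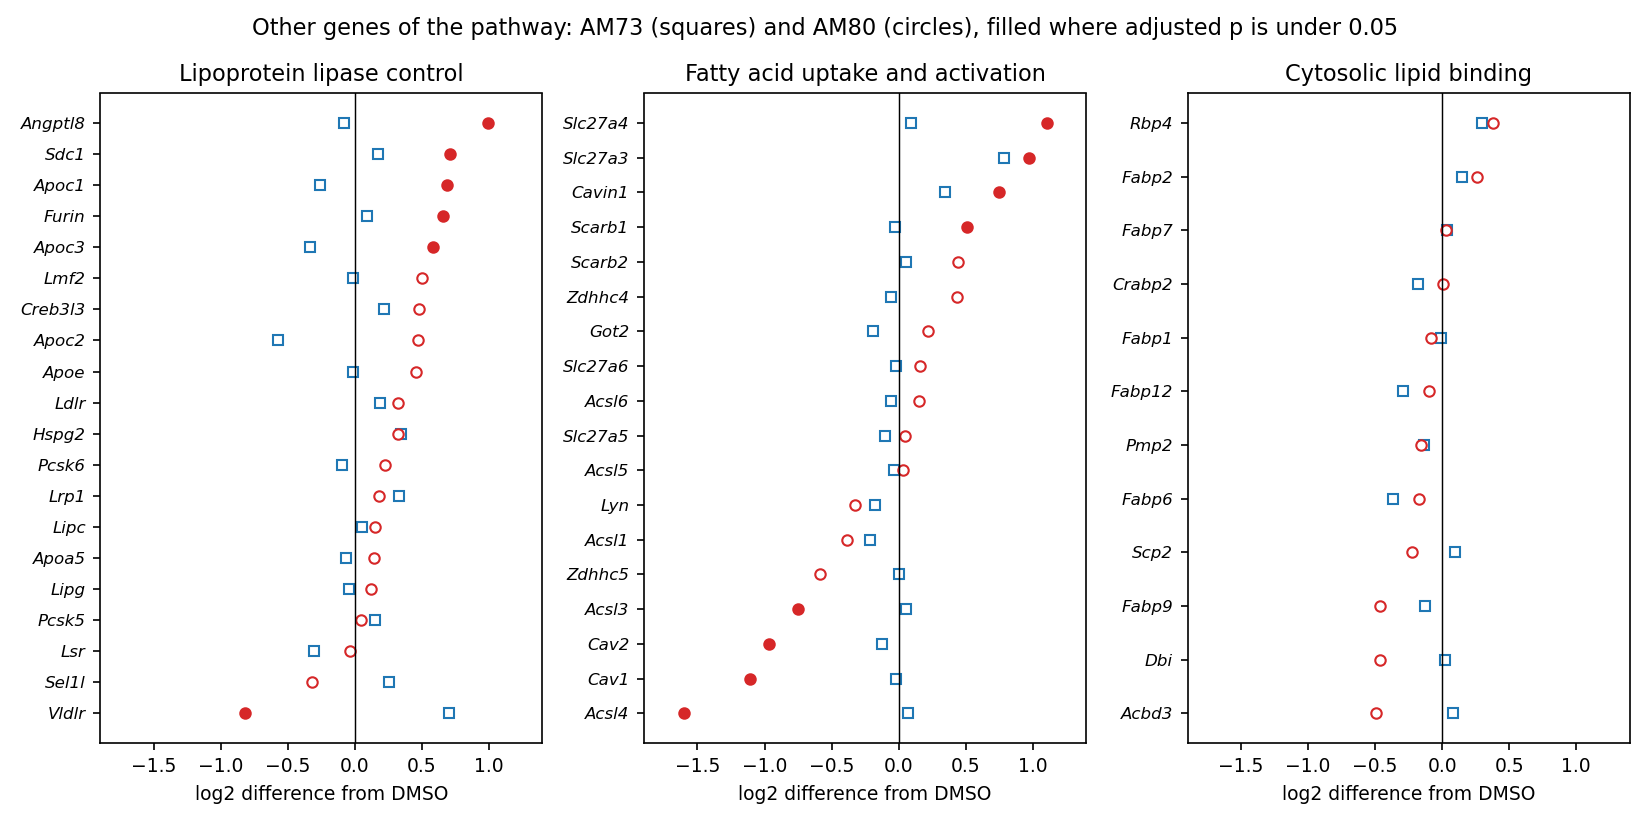
Log2 difference from DMSO (horizontal axis) of further genes of the 3 lists, with AM73 as squares and AM80 as circles, filled where the adjusted p is under 0.05. No square is filled, and filled circles lie on both sides of 0 in the lists for lipase control and for uptake.

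Among lipase control genes, 3 apolipoprotein genes passed upward in at least 1 comparison. Apoc3, known as a lipase inhibitor, read 4.80 to 4.99 with DMSO, 4.44 to 4.64 with AM73 and 5.25 to 5.57 with AM80. It rose by 0.58 against DMSO (adjusted p = 0.0129) and by 0.92 against AM73 (adjusted p = 0.00116), with 3 groups that did not overlap. Apoc2, the cofactor that activates the lipase, rose by 1.04 between AM73 (4.02 to 4.63) and AM80 (5.22 to 5.43, adjusted p = 0.00183), while its 0.47 against DMSO (4.78 to 4.89) had an adjusted p of 0.0800. Apoc1 rose by 0.69 against DMSO (adjusted p = 0.0227) and by 0.95 against AM73 (adjusted p = 0.00353). These 3 genes were lower with AM80 than with AM73 under poly-A scaling (−0.21, −0.08 and −0.18), and all 3 were then lower with AM80 than with DMSO too (−0.26, −0.37 and −0.15), without passing. The call of Apoc1 against DMSO was lost without DMSO replicate 1 (0.0998) or 2 (0.0894), or AM80 replicate 1 (0.0821) or 2 (0.0706), and that of Apoc3 without DMSO replicate 1 (0.0591). Both calls were also lost after adjusting for plate column (adjusted p = 0.0831 for Apoc1 and 0.0995 for Apoc3).

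Vldlr, a receptor that binds triglyceride-rich lipoproteins beside the lipase, went the other way. It read 6.40 to 7.34 with DMSO, 7.52 to 7.84 with AM73 and 5.93 to 6.34 with AM80. It fell, by −0.82 against DMSO (adjusted p = 0.0366) and −1.52 against AM73 (adjusted p = 0.00168), and its 0.70 with AM73 did not pass (adjusted p = 0.507). The call against DMSO was lost when any of AM73 replicate 1 (0.0582), 2 (0.0529) and 3 (0.0585) was left out, when AM80 replicate 1 (0.104) or 2 (0.126) was, and when DMSO replicate 1 (0.142) or 2 (0.127) was. It was lost after adjusting for plate column too (adjusted p = 0.0746). Angptl8, whose protein takes part in the control of the lipase, was picked out after its values were seen. It rose by 1.00 with AM80 (7.91 to 8.49 with DMSO, 8.85 to 9.59 with AM80, adjusted p = 0.0138), a call lost without DMSO replicate 1 (0.0643) or 2 (0.0509), after adjusting for plate column (0.0620) and under poly-A scaling (0.16, adjusted p = 0.595).

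On the uptake side both caveolin genes fell with AM80. Cav1, whose protein builds the small membrane pits called caveolae, read 8.98 to 9.38 with DMSO, 9.08 to 9.26 with AM73 and 7.92 to 8.21 with AM80. It fell, by −1.11 against DMSO (adjusted p = 0.00217) and −1.09 against AM73 (adjusted p = 0.000892). Cav2, its partner, fell too, by −0.97 (adjusted p = 0.00545) and −0.84 (adjusted p = 0.00527). Cavin1, which encodes a coat protein of caveolae and was picked out after its values were seen, rose by 0.75 against DMSO (adjusted p = 0.0113) and stood at −0.09 under poly-A scaling. That call was lost after adjusting for plate column (0.77, adjusted p = 0.0625), with only the AM80 and DMSO arrays fitted (0.0504) and in an ordinary linear model (0.0529). Acsl4, an acyl-CoA synthetase that prefers arachidonic acid, fell by 1.60 (7.10 to 7.98 with DMSO, 5.57 to 6.23 with AM80, adjusted p = 0.00308).

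Of the 4 other genes of the fatty acid transport protein family, 2 rose with AM80, while Slc27a5 (0.05, adjusted p = 0.870) and Slc27a6 (0.16, adjusted p = 0.561) did not pass against DMSO. Slc27a3 rose by 0.98 with AM80 (3.63 to 3.87 with DMSO, 4.44 to 4.97 with AM80, adjusted p = 0.00430). With AM73 it read 4.39 to 4.73, a difference of 0.79 that did not pass (adjusted p = 0.138). Its means of 3.75 with DMSO and 4.54 with AM73 lay below the background cut used for the markers. Slc27a4, picked out after its values were seen, rose by 1.11 with AM80 (5.23 to 5.96 with DMSO, 6.51 to 7.05 with AM80, adjusted p = 0.00812). Under poly-A scaling these rises were 0.14 and 0.27 and did not pass. Slc27a1 and Slc27a2 of the same family did not pass in any of the 3 comparisons.

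**Figure D5:**
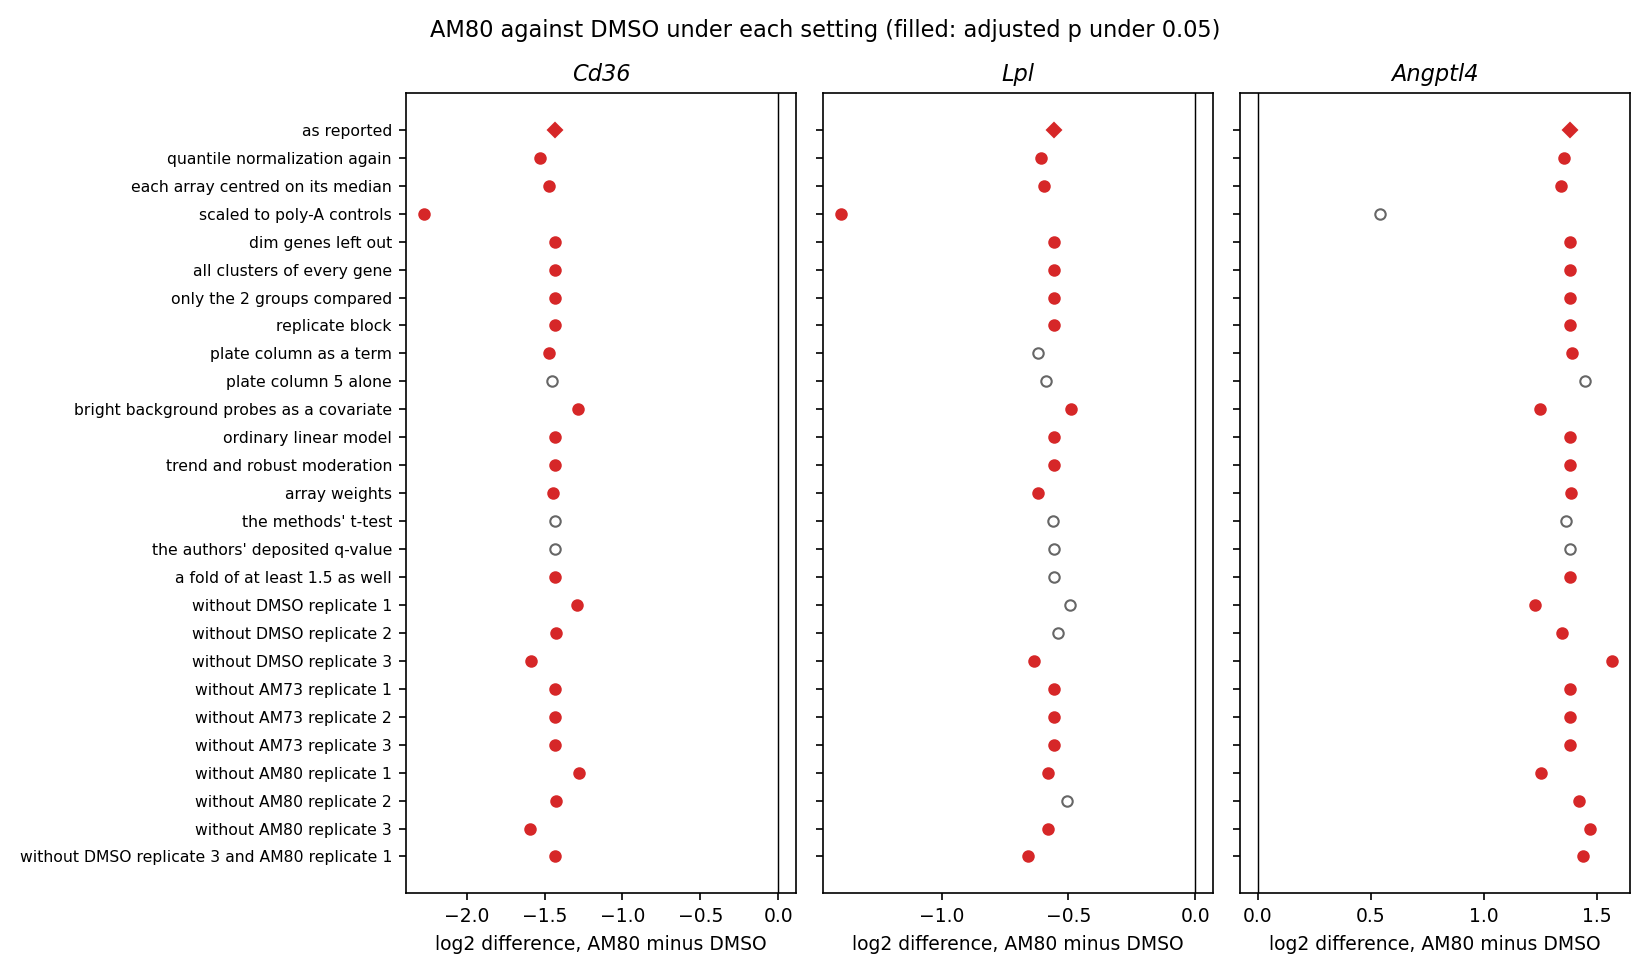
Log2 difference of Cd36, Lpl and Angptl4, AM80 minus DMSO (horizontal axis), under each processing setting (vertical axis), with the reported value as a diamond and filled points where the adjusted p is under 0.05. Every point of Cd36 and Lpl lies below 0 and every point of Angptl4 above it, and poly-A scaling moves all 3 downward.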

How the data were processed

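The deposited values of 9 arrays were used, 3 each for DMSO, AM73 and AM80. They are log2 values that the authors obtained by RMA with quantile normalization (Expression Console 1.41; NetAffx build 35, mm10), per the file headers and the submitters' processing notes. The series holds them in a pair of tables with identical entries. Per the file headers a p-value and a q-value per comparison come from a t-test on linear values. Of 41345 features 32202 gene features carried a symbol, 1913 symbols were updated through RefSeq, and 1 cluster per symbol left 30860 genes. Changes were fitted with limma 3.58.1 (lmFit, eBayes) in R 4.3.3, over 9 arrays in 1 fit with 6 residual degrees of freedom, two-sided, with Benjamini-Hochberg adjustment over all genes, a threshold of 0.05 and 95% intervals. The fit was tested on simulated data with independent noise for each gene. These held no shift shared by the genes of an array, so the test does not bear on such shifts. Only 3 arrays per group limit the precision. The 10 genes and all lists were chosen with earlier results of these data known. All 10 genes are named, with array values where called. Of the 51 further genes, the 8 with the smallest adjusted p are named by rule. Angptl8, Slc27a4 and Cavin1 were added after their values were seen, and Slc27a5 and Slc27a6 as members of the same family. The other called genes are only counted. Same-numbered arrays did not deviate together (correlations −0.30 to 0.07), so no pairing was used. Alternatives covered normalization, scaling, filters, plate column, background, moderation, weights and left-out arrays. Of the further genes, 1 is not reported here by name and is left out of the plot.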

Additional observations from a re-analysis of the deposited data

How the results depend on the processing

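The counts below are members of the 10 called for AM73 against DMSO, AM80 against DMSO and AM80 against AM73, reported as 0, 3 and 4. Poly-A scaling gave 1 (Angptl4), 6 and 9, of which the 6 and the 9 fell, where it called 0.402%, 78.5% and 91.3% of all genes. It turned the AM80 differences from DMSO of Gpihbp1 (−0.79), Fabp3 (−0.66), Apoc3 (−0.26), Apoc1 (−0.15) and Cavin1 (−0.09), and the uncalled ones of Lmf1 (−0.35), Apoc2 (−0.37), Fabp5 (−0.52) and Slc27a1 (−0.32). It turned the differences from AM73 of Angptl4 (−0.54), Lmf1 (−0.75), Fabp3 (−0.75), Fabp5 (−0.69), Slc27a1 (−0.80), Apoc3 (−0.21), Apoc2 (−0.083), Apoc1 (−0.18), Slc27a3 (−0.94), Angptl8 (−0.047), Slc27a4 (−0.12) and Cavin1 (−0.73). Array weights gave 1 for AM73 and 5 for AM80 against DMSO. Leaving out DMSO replicate 3 and AM80 replicate 1 together, chosen after the values were seen, gave 1 for AM73. Leaving out dim genes gave 6 for AM80 against DMSO, by testing fewer genes. The methods' t-test and the authors' q-value gave 0 there, with an adjusted p of 0.218 and a q of 0.138 for Cd36, Lpl and Angptl4. Plate column 5 alone gave 0 for AM80 against DMSO and 0 against AM73, with fewer arrays. Against AM73 a plate column term gave 2, and the bright background probes as a covariate gave 0, as over all genes. Leaving out each array in turn gave 0 for AM73, 2 to 3 for AM80 against DMSO and 3 to 4 against AM73. With the replicate number as a block, which did not pair the arrays, the counts were 0, 3 and 3, and calls were lost by Angptl4 against AM73 (adjusted p = 0.0922) and by Apoc1 (0.0574) and Vldlr (0.0671) against DMSO.

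Of the 51 further genes, reported as 14 called for AM80 against DMSO and 16 against AM73, poly-A scaling called 32 and 45, all lower, beside those 78.5% and 91.3% of all genes. Against DMSO the count was 8 with only the 2 groups compared, with the replicate block and with the background covariate, 5 with a plate column term and with an ordinary linear model, 22 with array weights, and 0 within column 5, by the t-test and by the q-value. Against AM73 it was 10 with a plate column term, by the q-value and with a fold of at least 1.5, 5 by the t-test, and 0 within column 5 and with the background covariate. Leaving out each array gave 6 to 20 and 12 to 20. Apart from the scaling, the cause of these shifts was not tested. Over all genes the AM73 count ran from 0 to 124 and the AM80 count against DMSO from 0 to 24222. Signals of Gpihbp1 and Slc27a2 at background allow no statement on their change.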
